A study of Mus musculus with 13 samples.

Results

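Nicotinic receptor function depends on accessory proteins as well as on receptor subunits, and 9 genes for such proteins were followed here in translating RNA of the medial habenula. The genes were Lynx1, Ly6h, Ly6e, Lypd1, Lypd6 and Lypd6b, which encode Ly6 family proteins, and Tmem35a, Ric3 and Rer1, which encode proteins of receptor assembly. They were taken by symbol, and all 9 were present among the 22682 symbols shared by the 13 libraries; the deposited tables list Tmem35a under its older name Tmem35. The tissue came from adult mice (older than 8 weeks). All mice carried the transgene Chat-TRAP DW167, which puts a GFP tag on ribosomes of cholinergic cells, and beads carrying anti-GFP then pull down the mRNA bound to those ribosomes (immunopurified RNA, IP). There were 6 IP libraries from Chat-TRAP mice without the knockout (wild type), 6 IP libraries from Gpr151-KO::Chat-TRAP DW167 mice (knockout) and 1 library of total RNA from the unpurified homogenate (input) of Chat-TRAP mice. Each library pooled 4 mice, or 3 for libraries 852 and 855. The sources used here give neither the sex of the mice nor the structure of the knockout allele, and an input of knockout mice was not analysed here. Names of the deposited tables mention saline for most libraries, and saccharin as well for the input, while the labels give no treatment.

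Neuronal nicotinic receptors are pentameric ion channels opened by acetylcholine, and the medial habenula is one of the brain regions richest in them. Ly6 proteins share a small fold held by disulfide bonds that resembles that of snake toxins, and several of them sit on the cell surface by a lipid anchor, bind nicotinic receptors and change their sensitivity or number. Before a receptor reaches the surface, its subunits must fold and assemble in the endoplasmic reticulum, where dedicated chaperones act and unassembled subunits are held back.

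The IP libraries held 28375912 to 64388596 counts in genes and the input 54701790. Levels are given as CPM, the counts of a gene per 1000000 counts in the symbols shared by all 13 libraries. Gpr151, the targeted gene, was lower in all 6 knockout libraries (121 to 212 CPM) than in any wild-type IP library (382 to 589 CPM), with a log2 fold change of -1.63 (edgeR quasi-likelihood test, adjusted p = 0.00592). All 8 markers of cholinergic habenula neurons were detected in every IP library, with a summed level of 3755 to 5915 CPM in wild type, 2740 to 6077 CPM in knockout and 490 CPM in the input. Markers of other cells were also present. Those of substance P medial habenula neurons summed to 210 to 312 CPM in wild type and 128 to 411 CPM in knockout. Their sum in the input was 654 CPM. Summed lateral habenula and thalamic neuron markers ran from 1892 to 2654 CPM in wild type and from 1825 to 3281 CPM in knockout. The input had 5138 CPM. This sum was above the cholinergic sum in libraries 1099 (3198 against 2740 CPM) and 1102 (3281 against 2916 CPM). Endothelial and mural markers ran from 4.39 to 22.6 CPM in wild type and from 7.01 to 31.6 CPM in knockout, against 13.2 CPM in the input. Summed astrocyte markers (8 of 8 in every library) ran from 154 to 976 CPM in wild type and from 157 to 1768 CPM in knockout, against 2135 CPM in the input. Oligodendrocyte markers (8 of 8) ran from 144 to 718 and from 201 to 1379 CPM, against 2944 CPM. GABAergic markers ran from 15.9 to 156 and from 52.7 to 328 CPM, against 645 CPM, with Vip, Npy and Dlx1 at 0 in at least 1 IP library. Libraries 1091 (wild type), 1099 and 1102 (both knockout) had the highest astrocyte, oligodendrocyte and GABAergic sums but for GABAergic markers in 1101, which at 176 CPM lay above 1091. By number there are 3 library sets, each with both genotypes (682 with 683, 852 with 855, and 1091 to 1102), and the set was a term in the tests of genotype. The first 4 are called earlier and the other 8 later, from these numbers and the symbols their tables list; dates are not known.

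Scaled to the length of their exons, the genes spanned about 2 orders of magnitude, and Lynx1 was the highest in every IP library. In wild-type IP the order of mean levels was Lynx1 (71.2 ± 13.5 CPM per kb), Rer1 (40.8 ± 9.39), Ly6e (38.9 ± 15.4), Tmem35a (33.6 ± 10.6), Ric3 (13.6 ± 1.91), Lypd6 (4.67 ± 0.422), Ly6h (3.31 ± 1.55), Lypd6b (0.894 ± 0.554) and Lypd1 (0.665 ± 0.437; SD, n = 6 each). Knockout IP gave the same order of means, from Lynx1 at 82.0 ± 14.7 to Lypd1 at 0.983 ± 0.713 CPM per kb (SD, n = 6 each). Some neighbours in that order were not separated: Rer1 was above Ly6e in 4 of 6 wild-type and 5 of 6 knockout libraries, Ly6e above Tmem35a in 6 and 2, Lypd6 above Ly6h in 5 and 5, Ly6h above Lypd6b in 6 and 4, and Lypd6b above Lypd1 in 4 and 5. Tmem35a and Ric3, and Ric3 and Lypd6, did not overlap in either group. In the input Lynx1 (163 CPM per kb) was again the highest, but the order below it differed. Tmem35a (39.4) was above Rer1 (37.3) and Ly6e (36.8), Lypd6 (15.9) above Ric3 (14.5), and Lypd6b (7.61) and Lypd1 (5.44) above Ly6h (2.08 CPM per kb). For comparison on the same scale, the receptor subunits Chrnb4 and Chrna3 were at 334 and 255 CPM per kb in wild-type IP. With the longest transcript as the length, Lynx1 stood at 82.5, Ly6e at 64.6, Ric3 at 22.1 and Ly6h at 4.99 CPM per kb. Lynx1 then kept the highest mean, and Ly6e lay above Rer1. The order within single libraries, that of Lynx1 included, is given for exon length only.

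**Figure D1:**
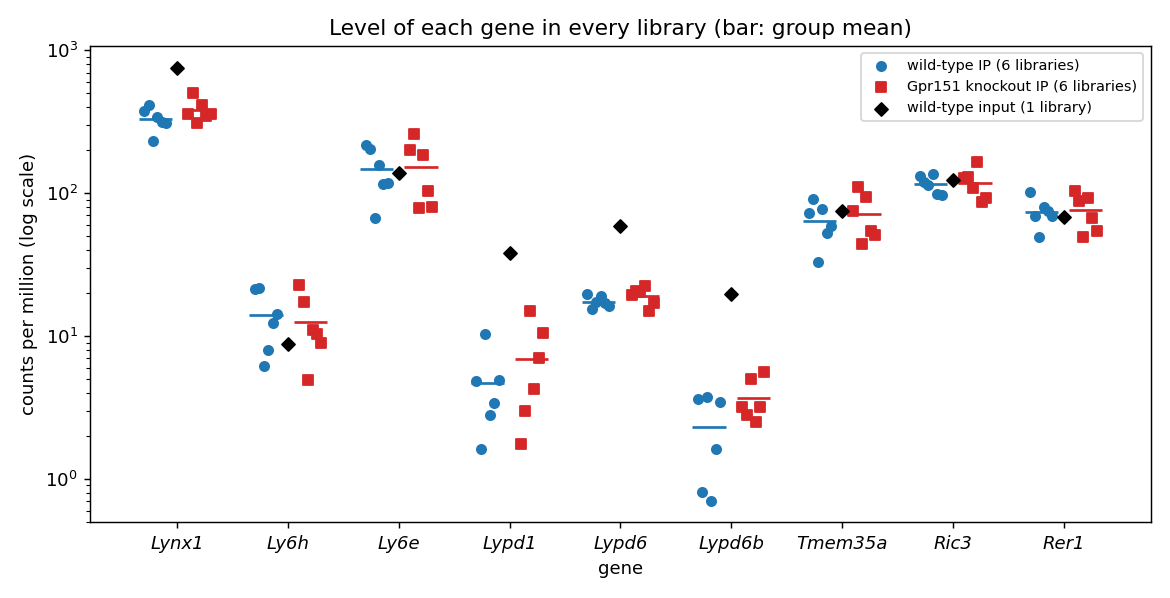
Level in CPM (log axis) of the 9 genes in each of the 13 libraries: wild-type IP (circles), knockout IP (squares), input (diamond), with bars at the means of 6 libraries. The input lies above all 12 IP libraries for Lynx1, Lypd1, Lypd6 and Lypd6b and within their spread for the other genes.

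Compared with the input, which holds RNA of all cells of the dissected tissue, 4 of the 6 Ly6 genes were lower in purified RNA. Lynx1, Lypd1, Lypd6 and Lypd6b lay below the input in all 12 IP libraries. The background was 11434 genes that reached 5 CPM in the input or on average in wild-type IP, and 29% of them lay below the input in all 12. By a stricter rule, a gene was depleted when every wild-type IP library was at least 2-fold below the input after adding 1 CPM to each, and enriched when every one was at least 2-fold above. Lypd1, Lypd6 and Lypd6b were depleted, 3 of 9, against 11.1% of all genes, and none of the 9 was enriched, against 4.71%. Lypd1 and Lypd6b reached 5 CPM in the input only, not as a mean of wild-type IP, so their place among the genes compared rests on the group where they are high. With knockout IP in place of wild type the same 3 genes were depleted, against 7.11% of all genes, and none was enriched, against 3.41%. The median log2 ratio of all genes was -0.07. With 1 input library this comparison has no replicate check. In bulk RNA, fewer cells of a type, less RNA per cell and less of the RNA on ribosomes cannot be told apart. The counts of the input cover 37328 symbols, against 32531 or 24454 for the IP libraries. Of its alignments 3.98% were ambiguous between genes, against 0.581% to 1.36% per IP library. The part of gene models in these ratios was not tested. With TMM scaling of library sizes the median of all genes moved from -0.07 to 0.16, and 43.4% rather than 29.7% of called genes were enriched. Lypd1, Lypd6 and Lypd6b were again the depleted members, against 8.14% of all genes.

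Lynx1 (chromosome 15, 74747852 to 74753046, minus strand, GRCm38) encodes the best known of these proteins, which is anchored to the surface of neurons and restrains nicotinic receptors. Its level was 759 CPM in the input (95% exact Poisson interval 750 to 767, counting error only). In wild-type IP the lowest library had 232, the median was 329 and the highest library had 415 CPM. In knockout IP these values were 309, 360 and 503 CPM. Every IP library was thus below the input while the genotypes overlapped: 4 of 6 knockout libraries lay within the wild-type range and 2 above it. The median log2 ratio to input was -1.20 in wild type (range -1.71 to -0.87) and -1.07 in knockout (-1.29 to -0.59). Only 5 of 6 wild-type libraries passed the 2-fold limit, so Lynx1 was not depleted by the rule. Without library 852, which did not pass, or in the later libraries alone, Lynx1 was depleted. With TMM scaling its median log2 ratio was -0.96, and with library sizes from all symbols -1.02. Under neither of these, nor with knockout IP, was it depleted by the rule. RefSeq gives SLURP-2 as another name of Lynx1, and no table lists Slurp2 on its own, so reads of both transcripts may be counted here.

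Lypd6 and Lypd6b are neighbours on the plus strand of chromosome 2, Lypd6b at 49787688 to 49948849 and Lypd6 at 50066429 to 50193569 (GRCm38), with 118 kb between them. Both encode lipid-anchored Ly6 proteins that have been described to modulate nicotinic currents, and Lypd6 is also known in Wnt signalling. Lypd6 was the steadiest of the 9 genes, with a coefficient of variation of 12.6% over the 12 IP libraries. Its level was 15.4, 17.1 and 19.6 CPM (lowest, median, highest) in wild-type IP and 15, 19.8 and 22.5 CPM in knockout IP, against 59.1 CPM in the input (interval 56.9 to 61.4). All IP values lay close together and far below the input, and 3 knockout libraries were above and 1 below all wild-type libraries. The median log2 ratio was -1.73 in wild type (range -1.87 to -1.55) and -1.53 in knockout (-1.91 to -1.35). Lypd6b was lower and more variable, at 0.705, 2.55 and 3.72 CPM in wild-type IP and 2.49, 3.18 and 5.60 CPM in knockout IP, with 19.8 CPM in the input (interval 18.5 to 21.2). It rested on 20 to 288 counts per IP library. Its lowest values were those of wild-type libraries 1092 and 852, and its median log2 ratio was -2.60 in wild type (range -3.61 to -2.14) and -2.31 in knockout (-2.57 to -1.66).

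Lypd1, also called Lynx2 (chromosome 1, 125867622 to 125913101, minus strand, GRCm38), encodes a Ly6 protein described to restrain nicotinic receptors in neurons. It had the largest spread of the 9 genes over the 12 IP libraries (coefficient of variation 71.3%). The lowest, median and highest levels were 1.61, 4.15 and 10.4 CPM in wild-type IP and 1.76, 5.66 and 14.9 CPM in knockout IP, and the input had 38.3 CPM (interval 36.5 to 40.1). Its median log2 ratio was -2.95 in wild type (range -3.91 to -1.78) and -2.59 in knockout (-3.83 to -1.30). The highest values were in libraries 1099 (14.9 CPM), 1102 (10.5 CPM), 1091 (10.4 CPM) and 1101 (7.06 CPM). These were also the libraries with the highest summed astrocyte markers, at 1768, 1046, 976 and 510 CPM. They had the highest sums as well for markers of oligodendrocytes, their precursors, GABAergic neurons, and lateral habenula and thalamic neurons. Sums for microglia, for endothelial and mural cells, and for choroid plexus and ependyma ranked the libraries otherwise. The part of other cells' RNA in the level of Lypd1 was not tested. Of the exons of Lypd1, 1202 bp (17.1%) overlap those of Gpr39 on the opposite strand, which had 9 counts (0.175 CPM) in library 1102, none in the other IP libraries and 2 counts in the input; use of strand in the counting is not known.

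**Figure D2:**
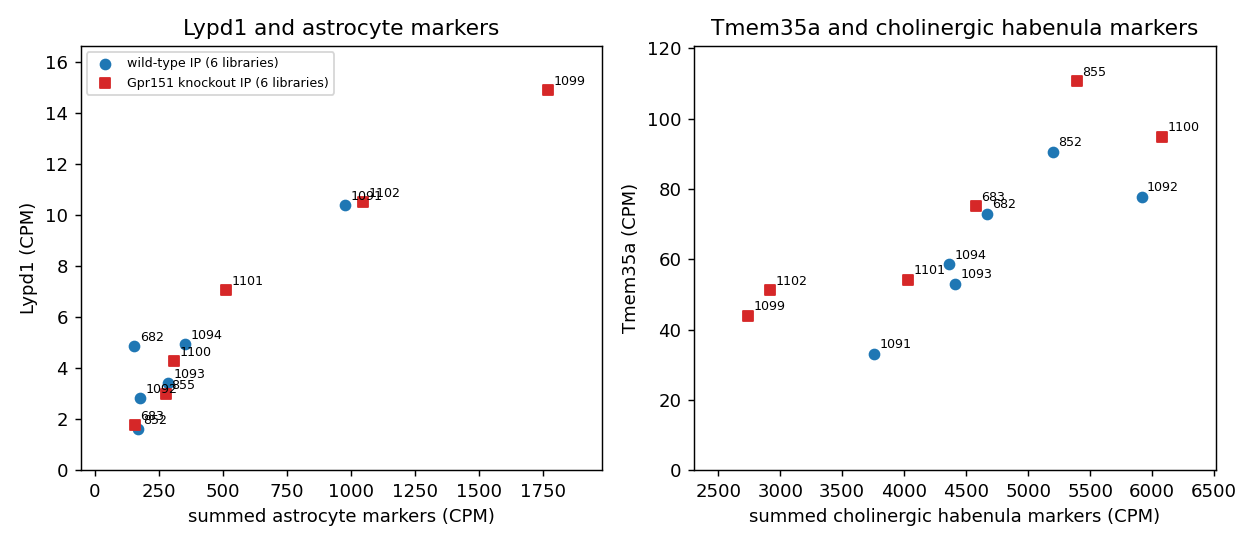
Left, Lypd1 (CPM) against the summed level of 8 astrocyte markers (CPM) in the 12 IP libraries; right, Tmem35a (CPM) against the summed level of 8 cholinergic habenula markers (CPM). Circles are wild type, squares knockout, and labels are library numbers. Libraries 1091, 1099 and 1102 are high on both axes at left, and libraries 852, 855, 1092 and 1100 at right.

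Ly6h and Ly6e differed from the other Ly6 genes in that neither was lower than the input in all libraries. Both lie on chromosome 15, as Lynx1 does: Ly6e on the plus strand at 74955051 to 74959905 and Ly6h, on the minus strand, at 75551268 to 75567255 (GRCm38). Ly6h encodes a brain Ly6 protein described to limit the surface level of receptors with the Chrna7 subunit. It was at 6.13, 13.3 and 21.7 CPM (lowest, median, highest) in wild-type IP, at 4.96, 10.7 and 22.8 CPM in knockout IP and at 8.77 CPM in the input (interval 7.92 to 9.69). The IP level was above the input in 9 of 12 libraries, and the median log2 ratio was 0.54 in wild type (range -0.45 to 1.22) and 0.26 in knockout (-0.71 to 1.28). Ly6e encodes a widely expressed Ly6 protein known from immune cells. Its level was 66.8, 138 and 219 CPM in wild-type IP and 79.4, 144 and 261 CPM in knockout IP, against 139 CPM in the input, with 6 of 12 libraries above and 6 below the input. Ly6h and Ly6e also shared a difference between library sets: the 4 earlier libraries (Ly6h 17.3 to 22.8 CPM, Ly6e 200.5 to 261 CPM) lay above all 8 later ones (4.96 to 14.2 and 66.8 to 185 CPM). Of all genes, 9.66% showed the same separation and 6.19% the opposite one, which none of the 9 showed. Earlier and later tables also list different sets of symbols, and samples and gene models cannot be told apart here. The input, library 824, is numbered between libraries 683 and 852, and the 4 earlier libraries were above it for both genes. In the later libraries alone the wild-type levels of Ly6h ran from 6.13 to 14.2 CPM, on both sides of the input. Those of Ly6e ran from 66.8 to 159 CPM, also on both sides. The counts and medians over all libraries thus mix earlier and later libraries.

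The assembly genes were close to the input level. Tmem35a lies on the plus strand of chromosome X at 134295225 to 134305969, Ric3 on chromosome 7 (minus strand) at 109034312 to 109083331 and Rer1 on chromosome 4 (minus strand) at 155074110 to 155086382 (GRCm38). Tmem35a encodes NACHO, a chaperone of the endoplasmic reticulum that many neuronal nicotinic receptors need for assembly. Its level was 33.2, 65.9 and 90.6 CPM (lowest, median, highest) in wild-type IP and 43.9, 64.7 and 110.6 CPM in knockout IP, and 75.6 CPM in the input (interval 73.0 to 78.2). It was above the input in 4 of 12 IP libraries: 855 (110.6 CPM), 1100 (94.9 CPM), 852 (90.6 CPM) and 1092 (77.8 CPM). These 4 libraries also had the highest summed cholinergic markers, from 5201 to 6077 CPM. The part of cholinergic cells' RNA in the level of Tmem35a was not tested. The median log2 ratio of Tmem35a was -0.20 in wild type (range -1.16 to 0.26) and -0.24 in knockout (-0.77 to 0.54).

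Ric3 encodes a chaperone of the endoplasmic reticulum known for its part in assembling receptors of the Chrna7 subunit. It was at 97.5, 117 and 136 CPM in wild-type IP, at 86.6, 119 and 165 CPM in knockout IP and at 124 CPM in the input, with a median log2 ratio of -0.08 in wild type (range -0.34 to 0.14). Rer1 encodes a sorting receptor of the early secretory pathway that returns unassembled membrane proteins, nicotinic subunits among them, to the endoplasmic reticulum. It was at 49.2, 72.5 and 101.5 CPM in wild-type IP, at 49.7, 77.7 and 103.4 CPM in knockout IP and at 67.7 CPM in the input, with a median log2 ratio of 0.10 (range -0.45 to 0.58). No wild-type library was 2-fold above or below the input for either gene. Of the exons of Ric3, 149 bp (1.74%) overlap those of Tub on the opposite strand. The sign of the median ratio was not stable under scaling for 2 of these 9 genes: with TMM scaling it was 0.17 for Ric3 and 0.21 for Ly6e (-0.03 by plain CPM), while Tmem35a was at -0.01.

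**Figure D3:**
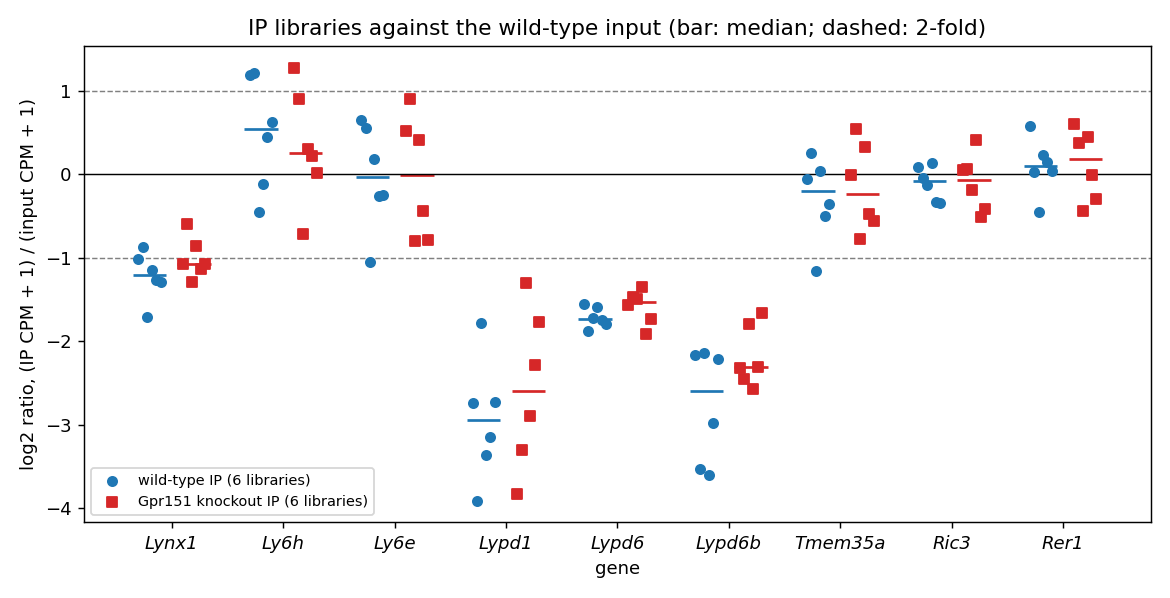
Log2 ratio of each IP library to the wild-type input after adding 1 CPM, for the 9 genes; circles are 6 wild-type and squares 6 knockout libraries, bars are medians and dashed lines mark 2-fold. Lypd1, Lypd6 and Lypd6b lie below the lower dashed line in all 12 libraries, and Tmem35a, Ric3 and Rer1 lie around 0.

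A model of the counts was also tried, in which the lone input is assumed to vary as the IP libraries do (edgeR, 13 libraries). It called 4 of the 9 genes lower in wild-type IP (9.01% of all genes were) and none higher (7.25% of all genes were). These were Lypd6 (log2 fold change -1.57, edgeR adjusted p = 0.000509), Lypd6b (-2.90, adjusted p = 0.00723), Lynx1 (-0.998, adjusted p = 0.0218) and Lypd1 (-2.83, adjusted p = 0.0260). Ly6h had 0.85 with a 95% interval of -0.69 to 2.39, and Tmem35a -0.04 with an interval of -1.09 to 1.01.

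To show regulatory sequence of a gene that was lower in purified RNA beside that of a gene near the input level, the 250 bases before the start sites of Lypd6 and Tmem35a are given, from RefSeq on GRCm38.p6; 4 of the 9 genes had an entry in that table. The windows are chr2:50066179-50066428 and chrX:134294975-134295224, both on the plus strand and printed 5′ to 3′. Capitals mark the CCAAT box (CCAAT, or ATTGG on the other strand) and the GC box (GGGCGG, or CCGCCC), found by exact match.
Lypd6: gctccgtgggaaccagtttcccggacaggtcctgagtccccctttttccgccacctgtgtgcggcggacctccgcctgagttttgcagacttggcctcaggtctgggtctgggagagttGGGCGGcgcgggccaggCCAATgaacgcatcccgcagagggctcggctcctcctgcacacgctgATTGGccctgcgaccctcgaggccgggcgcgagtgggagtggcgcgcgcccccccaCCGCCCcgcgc
Tmem35a: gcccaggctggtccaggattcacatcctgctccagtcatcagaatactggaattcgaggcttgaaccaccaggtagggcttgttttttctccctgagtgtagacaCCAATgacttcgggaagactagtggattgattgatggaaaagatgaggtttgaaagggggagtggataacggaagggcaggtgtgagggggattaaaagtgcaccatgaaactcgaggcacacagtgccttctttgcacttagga
The Lypd6 window had 24 CpG dinucleotides and a GC content of 70.4%, with 2 CCAAT and 2 GC boxes. The Tmem35a window had 4 CpG dinucleotides and 49.6% GC, with 1 CCAAT box and no GC box. The median over 32817 windows of the same length was 6 CpG dinucleotides. A CCAAT box was present in 33.8% of these windows and a GC box in 32.7%, and the matches describe the sequence only.

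No gene of the 9 passed the threshold between knockout and wild type. The comparison asks whether translated RNA of these genes differs when Gpr151, a receptor concentrated in the habenula, is disrupted. Of 14317 genes tested by the edgeR quasi-likelihood test, 0.014% passed an adjusted p of 0.05 and 3.06% had an unadjusted p under 0.05; of the 9 genes, none did either. All 9 passed the filter on low counts. Their log2 fold changes had a median of 0.16, with 8 of 9 above 0, beside a median of 0.002 and 50.4% above 0 over all genes tested.

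The 95% intervals give the size of difference these libraries leave possible. Lynx1 had a log2 fold change of 0.22 ± 0.12 (SE; interval -0.03 to 0.47, edgeR adjusted p = 0.999). Among the other Ly6 genes, Lypd6b had 0.79 ± 0.42 (interval -0.12 to 1.70), Lypd1 0.48 ± 0.45 (-0.51 to 1.47) and Lypd6 0.16 ± 0.13 (-0.13 to 0.44). Ly6h was the only gene with a value below 0, at -0.16 ± 0.22 (interval -0.64 to 0.33), and Ly6e had 0.02 ± 0.23 (-0.47 to 0.52). The assembly genes had 0.16 ± 0.21 for Tmem35a (interval -0.30 to 0.61), 0.04 ± 0.16 for Ric3 (-0.31 to 0.39) and 0.04 ± 0.16 for Rer1 (-0.30 to 0.39). The adjusted p was 0.999 for each of the 9 genes by edgeR and for each by DESeq2, which called 0.0838% of all genes. By DESeq2 the unadjusted p of Lypd6b was 0.0496. The intervals of Lypd1 and Lypd6b are wide enough to hold a 2-fold difference upward, while those of Lynx1, Lypd6, Ric3 and Rer1 lie within 0.5 on the log2 scale on either side of 0.

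Within library sets the direction varied. The differences within sets are of log2 CPM after adding 1 CPM, without TMM scaling. The added 1 CPM draws values toward 0 for genes as low as Lypd1 and Lypd6b. For Lypd1 the log2 difference, knockout minus wild type, was -1.09 in the set of 682, 0.61 in the set of 852 and 0.69 for the group means in the later set. For Lypd6b these values were -0.15, 1.08 and 0.65, and for Lynx1 -0.06, 0.28 and 0.26. Tmem35a was above 0 in each, at 0.04, 0.29 and 0.13, and Ly6h below 0 in the sets of 852 (-0.31) and of the later libraries (-0.17) but not in that of 682 (0.08). A test of whether the genotype difference itself differed between later and earlier libraries called none of the 9 genes and none of all 14317 (percent called 0, with 2.27% at an unadjusted p under 0.05, edgeR). For Lypd1 this difference, later minus earlier, was 1.13 with a 95% interval of -1.03 to 3.29. Knockout libraries 1099 and 1102, which had the highest non-neuronal marker levels, also had the highest Lypd1 and Lypd6b levels; the part of other cells' RNA in these values was not tested beyond the fits given next. With a score of non-neuronal markers as a covariate, the log2 fold change of Lypd1 was -0.10 and that of Lypd6b 0.37. In that fit 4 of the 9 genes had an unadjusted p under 0.05 by edgeR, as did 508 of all 14317 genes. None of the 9 passed after adjustment. Tmem35a was at 0.41 ± 0.13 (SE; unadjusted p = 0.00703, edgeR adjusted p = 1) and Lynx1 at 0.30 ± 0.10 (unadjusted p = 0.0110, edgeR adjusted p = 1). Ly6e was at 0.30 ± 0.13 (unadjusted p = 0.0364, edgeR adjusted p = 1) and Rer1 at 0.22 ± 0.10 (unadjusted p = 0.0446, edgeR adjusted p = 1). Without library 1099 alone Lypd1 was at 0.18, and without 1091 alone at 0.82. Without libraries 1091, 1099 and 1102, Lypd1 was at 0.23 and Lypd6b at 0.64.

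**Figure D4:**
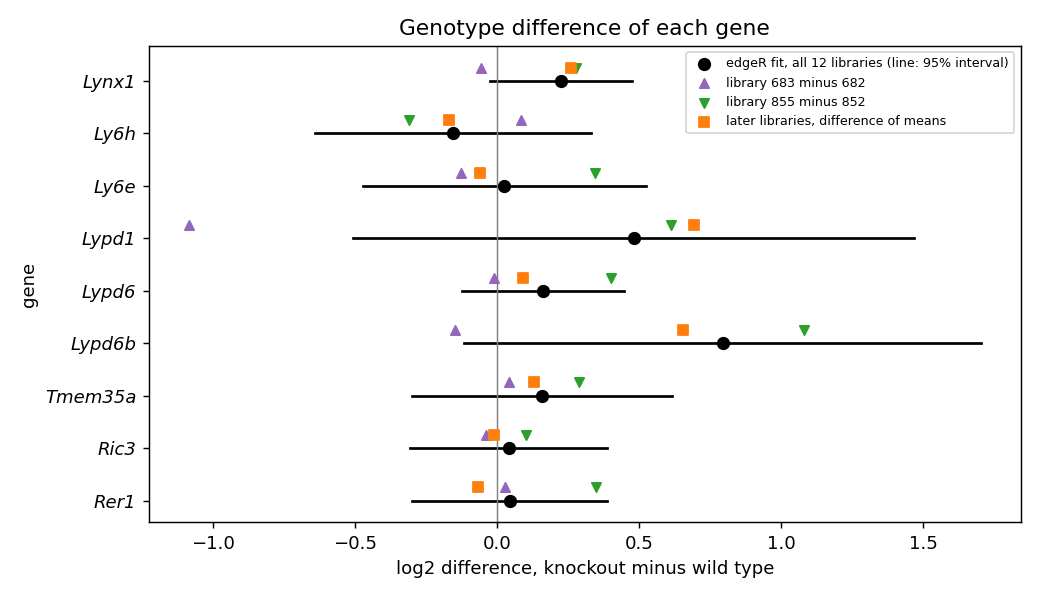
Log2 difference of knockout minus wild type for each gene: the edgeR estimate with its 95% interval (circle and line) and the differences within the 3 library sets (triangles, inverted triangles and squares). Differences within sets are of log2 CPM after adding 1 CPM, without TMM scaling. All 9 intervals include 0, and the points of Lypd1 lie on both sides of it, from -1.09 to 0.69.

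Other genes of the pathway were described by list. Of 16 nicotinic receptor subunits, 10 were tested for genotype and none passed; their median log2 fold change was -0.02. Of the 7 subunits with enough reads, 4 were enriched in wild-type IP and none was depleted, against 4.71% and 11.1% of all genes. The enriched subunits were Chrna3, Chrnb4, Chrnb3 and Chrna5, with median log2 ratios of 3.77, 3.53, 3.10 and 2.13. Chrna5 passed the filter through wild-type IP only (5.28 CPM on average, with 0.476 CPM in the input). In the same libraries Ly6h had the highest median ratio of the 9 accessory genes, at 0.54. The other 3 subunits, given to complete the list, were Chrnb2 (0.62), Chrna4 (-0.14) and Chrna7 (-0.37), and they were neither enriched nor depleted.

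Among other Ly6 and uPAR family genes, 27 of 35 listed symbols were present in all tables, and 4 had enough counts to be tested for genotype; none passed (median log2 fold change 0.32). The complement inhibitor Cd59a was the 1 gene of this list above 5 CPM, and it was depleted (median log2 ratio -2.32). Its level was 19.0 CPM in the input and 3.40 CPM on average in wild-type IP, so it passed through the input only. Of 20 other factors of receptor folding and traffic, 19 were present and 18 were tested for genotype; none passed, with a median of 0.08 and 14 of 18 above 0. Calr (0.30) and Hspa5 (0.32), chaperones of the endoplasmic reticulum, had an unadjusted p under 0.05 (edgeR adjusted p = 0.999 for both); they are named after their values were seen. Of the 17 of these factors that could be compared with the input, 3 were depleted, against 11.1% of all genes: the calcium sensor Vsnl1 (-3.86), Tmie (-2.26) and Lamp5 (-2.24). Lamp5 passed through the input only (5.26 CPM, with 0.444 CPM on average in wild-type IP). None was enriched, against 4.71% of all genes, and the median log2 ratio of the 17 was -0.29 beside -0.07 for all genes.

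Across the 12 IP libraries, with the mean of each library set removed, other genes followed the 9 genes closely; all genes are read in the same libraries, which differ in depth and in markers of other cells, and the highest values among all tested genes are a description only. The genes with the highest Pearson r (n = 12 libraries) were Syngr1 (0.967) and Sema4f (0.957) for Lynx1, and Etnppl (0.982) and Doc2b (0.981) for Lypd1. For Lypd6 they were Tm7sf3 (0.936) and Tmem67 (0.934), and for Lypd6b Slc12a4 (0.970) and Six3 (0.955). Ly6h was followed by Nol12 (0.979) and Sbsn (0.977), and Ly6e by Scamp4 (0.990) and Kdelr2 (0.990). Tmem35a was followed by Erp29 (0.968) and Cnih1 (0.968), Ric3 by Ppp2r3c (0.982) and Pank3 (0.981), and Rer1 by Scamp4 (0.985) and Snhg1 (0.972). Scamp4 was thus among the closest genes for both Ly6e and Rer1.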

How the data were processed

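TRAP sequencing libraries of mouse medial habenula were analysed from the deposited counts, 1 table of raw counts of reads per gene symbol for each of 13 libraries. The submitters' processing notes name STAR (2.3.0e), HTSeq, DESeq2 and the build mm10, with no settings, strand use or gene models. The labels' protocols describe amplification of cDNA by the Ovation kit. The tables differ in the symbols they list (32531, 24454 or 37328), so 23857 symbols shared by the IP libraries were used for genotype and 22682 shared by all libraries for levels and input ratios. Summary lines were left out; of all alignments per IP library, 9.44% to 16.6% fell in no gene and 25.2% to 53.2% had several positions. An entry named unknown held at most 2 counts and was also left out. The limit that a count of 0 allows (3 counts) was 0.0502 to 0.121 CPM per IP library.

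Genotype was tested with edgeR 4.0.16 (R 4.3.3): filterByExpr (minimum count 10, total 15), TMM scaling, library set plus genotype, robust quasi-likelihood, two-sided, Benjamini-Hochberg adjustment over all genes, threshold 0.05. DESeq2 1.42.0 was an alternative. Log2 CPM used a prior count of 2. In simulated counts for 14163 genes the genotype fit recovered 88.7% of 4-fold and 53.1% of 2-fold changes (log2 change 2 and 1), with 6 false calls. The fit of genotype by library set recovered 40.1% of 4-fold changes. The simulated counts held no general differences between library sets or in cell mixture. Replicates are pools of animals; replicate numbers were given in accession order. Gene positions and exon lengths came from GENCODE M21 (GRCm38). The members and lists were chosen with earlier results of these data known. The text names all 9 members, listed genes called by a test or by the ratio rule (up to 4 per direction), the 2 genes most like each member, and Gpr151. Alternatives covered scaling, filters, pseudocounts, covariates, library subsets and leaving out each library.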

Additional observations from a re-analysis of the deposited data

How the results depend on the processing

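The call of depletion from the input for Lypd1, Lypd6 and Lypd6b held under all 14 alternatives, and the lack of a genotype call for the 9 genes under all 22. For genotype, the fit of the later libraries only and a fit without 1 knockout library called 0 genes. Both thus missed Gpr151 as well, so the lack of a call there says nothing about the 9 genes. Other alternatives also left out libraries and so had fewer from which to make a call. For depletion, leaving out a library, the later wild-type libraries alone, no filter or a pseudocount of 0.1 CPM could not have undone the call. The alternatives that could were a pseudocount of 5 CPM, TMM scaling, library sizes from all symbols, knockout IP and the edgeR model. All used the same single input library. No paired analysis was possible because the labels give no replicate numbers that tie single libraries across genotypes; the library set was a term instead, and without it 2 genes were called, as with it.

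The count of genes called for genotype was 2 and became 12 with DESeq2, 1 with a filter of 1 CPM in 6 libraries, 0 with the later libraries only and 1 without the 3 libraries of highest non-neuronal marker score (chosen after the data were seen); leaving out 1 library gave 0 to 2, with 0 without library 683. The interaction was called for 0 genes (2 with DESeq2). Signs turned with the marker score as a covariate for Lypd1 (-0.10) and Ly6h (0.00211), with the earlier libraries only for Lypd1 (-0.32), and with the later ones only for Ly6e (-0.0194) and Rer1 (-0.0338). Leaving out 1 library gave genotype values of 0.18 (without 1099) to 0.82 (without 1091) for Lypd1, -0.26 (without 1091) to -0.03 (without 1094) for Ly6h, 0.58 to 1.01 for Lypd6b, 0.16 to 0.27 for Lynx1, 0.10 to 0.23 for Lypd6, -0.18 to 0.16 for Ly6e, -0.10 to 0.11 for Ric3, -0.0653 to 0.11 for Rer1 and -0.0135 to 0.30 for Tmem35a. The cause was not tested.

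The count of genes called against the input was 1812, and 1199 with knockout in place of wild-type IP. The log2 ratio of Lypd6 was -1.54 with a pseudocount of 5 CPM, -1.50 with TMM scaling, -1.51 with library sizes from all symbols, -1.53 in knockout and -1.57 by edgeR. That of Lypd6b was -1.73 with a pseudocount of 5 CPM, and that of Ric3 0.17 with TMM scaling. Length-scaled levels moved with the longest transcript as length for Ly6h (4.99), Ly6e (64.6) and Ric3 (22.1 CPM per kb). The input is a single library, and Lypd6b and Lypd1 rest on as few as 20 and 40 counts in an IP library.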
